A study of Mus musculus with 6 samples.

Results

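The genes described here are 37 lysosomal genes, taken by name from the 55487 genes of the count table. They comprise 10 cysteine proteases, 3 aspartic and serine proteases, 7 glycosidases, 4 lipid hydrolases, 2 precursors of cofactors, 5 membrane proteins, 4 subunits of the proton pump and 2 transcription regulators. All 37 were found in the table, and all 37 passed the filter on low counts, so none was left out of the comparison.

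RNA was sequenced from mammary epithelial cells (MECs) of 3 wild-type and 3 IL-21isoTg mice, with 1 library per mouse. All 6 mice were BALB/c females at 10 weeks of age. IL-21isoTg mice carry a transgene for a membrane-bound isoform of the cytokine IL-21, which the paper describes as specific to T cells. The promoter of the transgene is not given in the sources used here. MECs were the cells left after dissociated mammary tissue was depleted of cells carrying CD45, CD31 or CD140a, which mark leukocytes, endothelium and fibroblasts. The comparison asks how these genes differ between MECs of both genotypes in young mice.

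Lysosomes are acidic organelles in which proteins, glycans, glycogen and lipids delivered by endocytosis, phagocytosis and autophagy are degraded. Their hydrolases are made as inactive precursors and become active at low pH, which is maintained by a proton-pumping ATPase in the lysosomal membrane. Transcription factors of the MiT/TFE family, among them TFEB and TFE3, bind a short palindrome with the letters CACGTG, an E-box, near the start of many lysosomal genes. In the mammary gland, cathepsins take part in tissue remodelling, and they can be secreted as well as kept in the lysosome.

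The difference between the genotypes was small in most of these genes, and it had the same sign in nearly all of them. Mean levels were higher in IL-21isoTg MECs for 33 of the 37 genes and lower for 4, while 47.9% of the 17165 genes tested were higher. The median log2 fold change of IL-21isoTg over wild-type was 0.24 for the 37 genes and -0.02 for all genes tested. In 10 of the 37 genes every IL-21isoTg mouse lay above every wild-type mouse, against 5.54% of all genes and 6.21% of genes with a mean of at least 10 CPM (counts relative to the TMM-normalized size of each library). Gla was the only member for which every IL-21isoTg mouse lay below every wild-type mouse, against 6.54% and 6.63% of those genes. Genes of one organelle are not independent of each other, so these counts describe the list and were not tested.

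None of the 37 genes was called. In the quasi-likelihood fit of edgeR, adjusted by the Benjamini-Hochberg method over all genes tested, 0 of 17165 genes (0%) passed an adjusted p of 0.05, and the adjusted p of the 37 genes lay between 0.523 and 0.999. At an unadjusted p under 0.05, 3 members were higher in IL-21isoTg MECs, namely Ctsl, Ctsd and Ctsh, and 0 were lower, beside 3.19% and 2.63% of all genes. Without wild-type mouse 2 it was 8 members, with DESeq2 or with the salivary gland level as a covariate 6, and with any other library left out between 2 and 4, while 0 were lower each time. Over all genes, in either direction, it was 999 of 17165 in the main fit and 1167 of 17748 without wild-type mouse 2. With DESeq2 it was 1190 and with the covariate 1059, each of 17165, and with any other library left out between 537 and 1566. DESeq2 called 72 genes higher (0.42%) and 8 lower (0.0467%) of the 17137 genes to which it gave an adjusted p, and Ctsl was the 1 member among them. Whether each mouse's sample came from a separate dissociation is not stated beyond the numbering of the mice. The p-values weigh the difference between the genotypes against the spread between the libraries of each genotype.

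**Figure D1:**
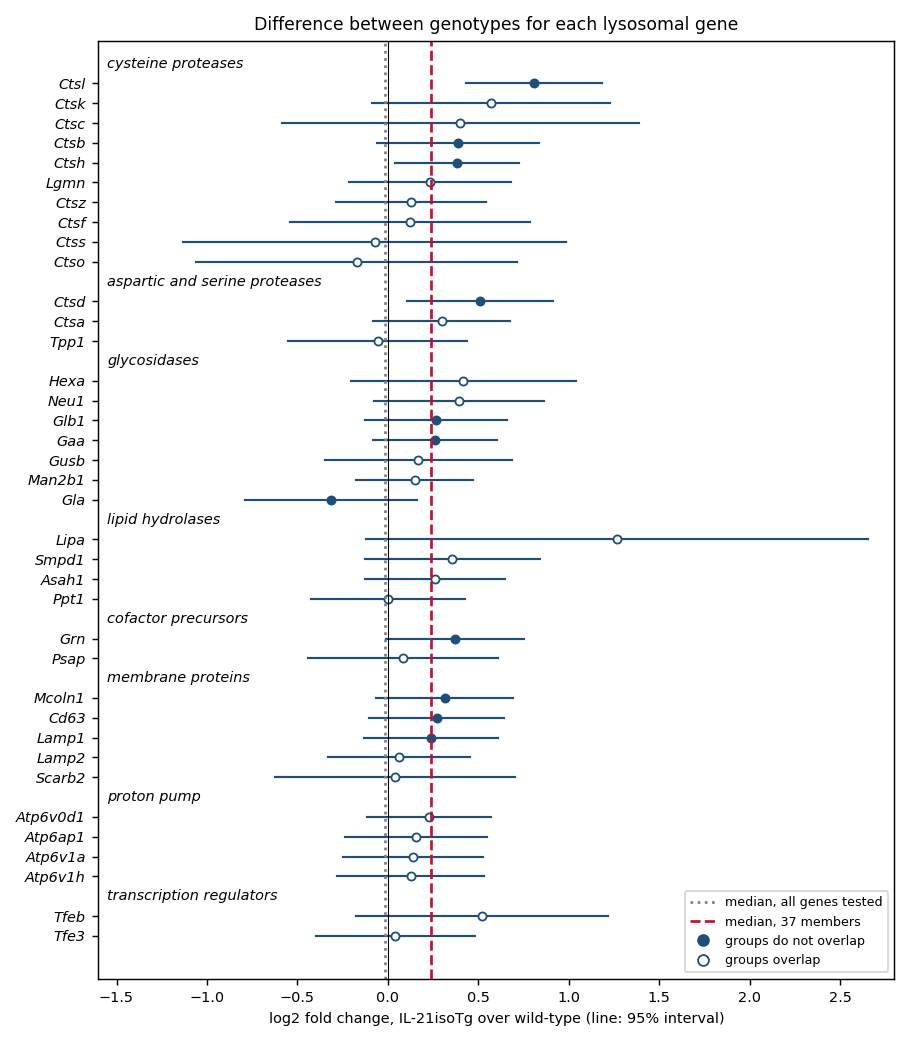
Log2 fold change of IL-21isoTg over wild-type MECs (horizontal axis) with its 95% interval for each of the 37 genes, grouped by role. Filled points mark genes whose groups of 3 mice did not overlap, the dotted line the median of all 17165 genes tested (-0.02) and the dashed line the median of the 37 genes (0.24). Most points lie to the right of 0, and the interval excludes 0 only for Ctsl, Ctsd and Ctsh.

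The libraries held between 15902886 and 25719244 counts, so that 3 counts, taken as the floor, corresponded to 0.112 to 0.280 CPM. Each member had at least 34 counts in every library. Genes of the salivary glands, 15 of which were listed, took between 4.92% and 41.0% of the counts, with the highest share in IL-21isoTg mouse 3, and the 37 genes together took between 0.333% and 0.657%, with the lowest share in that mouse. Il21 had 0, 0 and 37 counts in the wild-type and 795, 216 and 131 counts in the IL-21isoTg libraries. Which cells this Il21 RNA came from was not tested. Epithelial genes were abundant in all 6 libraries, where the 10 mammary epithelium markers summed to between 5807 and 8941 CPM.

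Promoter windows of RefSeq on GRCm38.p6, from 250 bases before to 50 bases after the start of the gene, were available for 33 of the 37 genes, all but Ctsb, Ctsh, Asah1 and Atp6v1h. The letters CACGTG, which read the same on both strands, stood in 12 of the 33 windows (36.4%), in 14 of the 58 windows available for 80 other lysosomal genes and cystatins (24.1%) and in 2187 of 27025 windows in all (8.09%). The longer form TCACGTGA, which contains CACGTG, stood in 6 of the 33 windows (18.2%) and in 1.12% of all windows. The full CLEAR element, which extends the longer form by 1 base on each side, was in 0 of the 33 windows and in 0.37% of all windows. The stretches below are shown because they hold these letters near the start of each of the 7 members that have them and whose groups did not overlap. Capitals mark CACGTG, or TCACGTGA where the longer form is present, and each stretch is written 5′ to 3′ on the strand of its gene.
Lamp1, chr8:13159097-13159156, plus strand: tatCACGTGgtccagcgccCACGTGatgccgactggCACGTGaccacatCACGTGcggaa
Gla, chrX:134601183-134601242, minus strand: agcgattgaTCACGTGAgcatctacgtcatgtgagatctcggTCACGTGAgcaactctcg
Glb1, chr9:114401003-114401062, plus strand: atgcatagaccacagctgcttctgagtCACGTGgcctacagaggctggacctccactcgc
Gaa, chr11:119267796-119267855, plus strand: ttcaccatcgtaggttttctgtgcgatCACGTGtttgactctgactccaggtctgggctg
Ctsd, chr7:142387911-142387934, minus strand: cccgcgtcTCACGTGAcccgttga
Ctsl, chr13:64370742-64370765, minus strand: gttagaagcCACGTGctgatctaa
Mcoln1, chr8:3500465-3500488, plus strand: cgccccgcTCACGTGAccgcggcg

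The 4 first stretches lie in front of the annotated exons of their genes, with the Lamp1 stretch ending 5 bases before the RefSeq start and holding 4 copies of CACGTG. The Ctsd, Ctsl and Mcoln1 sites lie 95, 233 and 42 bases before the RefSeq start, measured at their centre, in stretches of 60 bases of which 60 (Ctsd), 43 (Ctsl) and 37 (Mcoln1) are annotated as exon, so only the sites are shown. The other members with the letters in their window were Ctsa, Ctsf, Lgmn, Atp6v0d1 and Atp6v1a, all with overlapping groups. The longer form stood in Ctsa, Atp6v0d1 and Atp6v1a among these, and in Ctsd, Gla and Mcoln1 among the members whose groups lay apart. The 12 windows held 19 copies in all, 8 of them in the longer form and 13 within 100 bases of the start. Of the 9 members that had a window and whose groups did not overlap, 7 held CACGTG (77.8%), and of the other 24 it was 5 (20.8%). The 9 include Gla, which was lower, and leave out Ctsb and Ctsh, which lay apart but had no window. Which groups lay apart depended on single libraries, and a link between the letters and the difference was not tested. The median log2 fold change was 0.25 for the 12 members with the letters and 0.16 for the 21 without them, and Gla, the member whose groups lay apart in the lower direction, has 2 copies. A match describes the letters of the window and not the binding of a factor.

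Levels of different genes were compared as RPKM, here CPM per kilobase of the union of a gene's exons. Psap, the precursor of the saposins that help hydrolases reach their lipids, was the highest at 328 ± 57.2 RPKM (SD, n = 3) in wild-type and 348 ± 48.0 RPKM (SD, n = 3) in IL-21isoTg MECs, and it ranked 118th of all genes tested. Its lowest mouse, at 280 RPKM, lay above the highest mouse of Ctsd, at 185 RPKM. Ctsd was next with a mean of 150 RPKM over the 6 mice, and Lamp1 followed with 122 RPKM, but their ranges over mice overlapped. Ctsb had 85.8, Cd63 67.2, Ctsz 66.1, Grn 54.3 and Ctsl 52.8 RPKM, and from Ctsb to Ctsl each gene overlapped the next one in its range over mice.

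The middle of the order held the pump subunit Atp6ap1 at 41.7 RPKM and the enzymes and membrane proteins from Atp6v0d1 at 30.3 to Smpd1 at 8.16 RPKM. At the low end lay Mcoln1 with 4.46, Gla with 3.70, Tfeb with 3.15, Ctso with 2.98 and Ctss with 1.68 RPKM. Ctss, a cathepsin known from antigen-presenting cells, ranked 11562nd of all genes tested. The order of the 37 genes was the same when the deposited values scaled by the authors were divided by the same lengths.

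**Figure D2:**
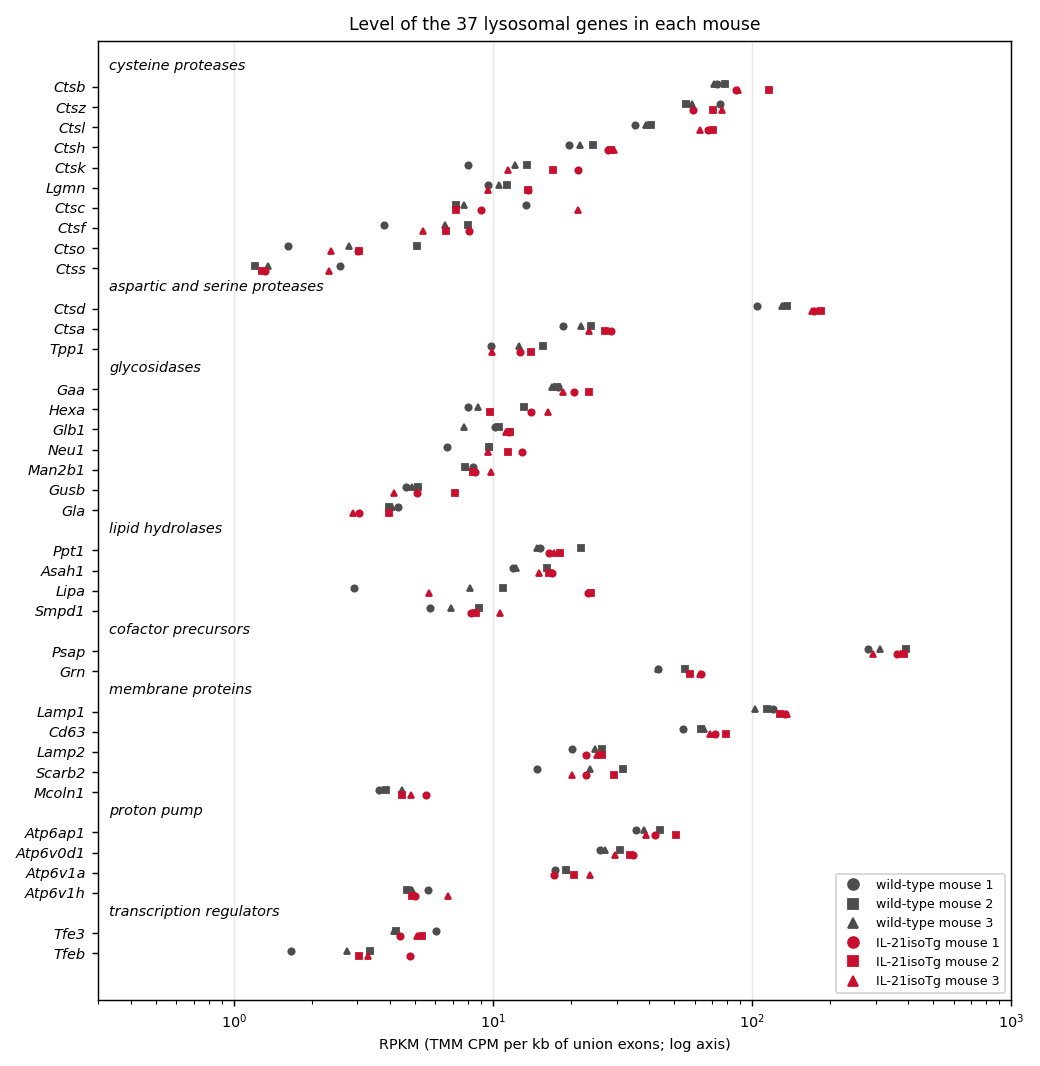
RPKM of each of the 37 genes in each mouse on a log axis, with grey for wild-type and red for IL-21isoTg MECs and one symbol per mouse. Within each role the genes are ordered by their mean, from Psap (280 to 391 RPKM) down to Ctss (1.2 to 2.56 RPKM).

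The cysteine proteases, which cut proteins with a cysteine in the active site, included the member with the smallest p. Ctsl encodes cathepsin L, an endopeptidase, and is a minus-strand gene at 64359337 to 64370890 of chromosome 13 (GRCm38). Its level was 229, 265 and 254 CPM in the wild-type mice and 439, 459 and 410 CPM in the IL-21isoTg mice. The 3 IL-21isoTg mice were close to each other and all lay far above the wild-type mice. Ctsl was 1.75-fold higher in IL-21isoTg MECs (95% interval 1.35 to 2.27), a log2 fold change of 0.81 (standard error, SE, 0.16) with an adjusted p of 0.523 in the quasi-likelihood fit of edgeR. It ranked 37th of all genes tested by p. DESeq2 gave a log2 fold change of 0.82 and an adjusted p of 1.25e-04, and over all alternatives the log2 fold change lay between 0.76 and 0.86 and the adjusted p between 1.25e-04 and 0.994.

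The antisense gene Gm47123 shares 1742 bp with the exons of Ctsl, and whether counting used the strand is not given. Gm47123 had 64 counts over the 6 libraries, compared with 43531 for Ctsl. A processed pseudogene on the same strand, Gm49230, shares 395 bp with Ctsl and had 0 counts.

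The higher level of Ctsl was also visible as a share of the counts of the 37 genes, a ratio within each library that does not depend on the scaling between libraries. Ctsl took 5.84% (95% Wilson interval 5.686 to 5.997), 5.51% (5.37 to 5.66) and 5.99% (5.84 to 6.14) of these counts in the wild-type mice. The share was 8.42% (8.26 to 8.57), 8.16% (8.02 to 8.30) and 8.31% (8.08 to 8.55) in the IL-21isoTg mice. The intervals cover counting error only, and no interval of one genotype reached into those of the other. With 3 mice against 3, an exact permutation test cannot give a p below 0.1, which holds for every pair of groups here that do not overlap.

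Ctsb, the most abundant cysteine protease per length, encodes cathepsin B. It had 442, 474 and 433 CPM in wild-type and 525, 704 and 535 CPM in IL-21isoTg mice. The groups did not overlap, and IL-21isoTg mouse 2 stood well above the others. The log2 fold change was 0.39 (SE 0.19), with an adjusted p of 0.809 in the quasi-likelihood fit of edgeR. Fdft1 shares 774 bp with the exons of Ctsb on the opposite strand, and its counts were 10.4% of those of Ctsb.

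Ctsh encodes cathepsin H, an aminopeptidase. It had 88.7, 109 and 97.2 CPM in wild-type and 125, 128 and 132 CPM in IL-21isoTg mice. The IL-21isoTg mice varied little, with a coefficient of variation of 2.75% compared with 10.4% in wild-type mice, and the groups did not overlap. The log2 fold change was 0.38 (SE 0.15, unadjusted p = 0.0329, adjusted p = 0.809 in the quasi-likelihood fit of edgeR).

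In the other 7 cysteine proteases the groups overlapped. Their log2 fold changes ran from -0.17 for Ctso to 0.57 for Ctsk, the collagen-degrading cathepsin K of osteoclasts and some fibroblasts. Ctsc, which encodes the dipeptidyl peptidase that activates granule serine proteases of leukocytes, had 77.7, 41.7 and 44.8 CPM in wild-type and 52.1, 41.7 and 124 CPM in IL-21isoTg mice. The highest value was that of IL-21isoTg mouse 3, and without that mouse the log2 fold change of Ctsc was -0.21 in place of 0.40. Ctsc was picked after its values were seen, as was Ctsa. Ctsf, Ctsz, Ctss and the asparaginyl endopeptidase gene Lgmn lay at 0.12, 0.13, -0.07 and 0.23 on the log2 scale. Nelfcd shares 10 bp with the exons of Ctsz on the opposite strand and had 19.9% of its counts. Summed over the 10 cysteine proteases, the level was between 1005 and 1085 CPM in wild-type and between 1348 and 1543 CPM in IL-21isoTg mice, so the sums did not overlap. Ctsb and Ctsl were the largest items of this sum. The sums of the aspartic and serine proteases, glycosidases, transcription regulators and, only just (1020.73 against 1020.83 CPM), membrane proteins also lay apart. Those of the lipid hydrolases, cofactor precursors and pump subunits overlapped.

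**Figure D3:**
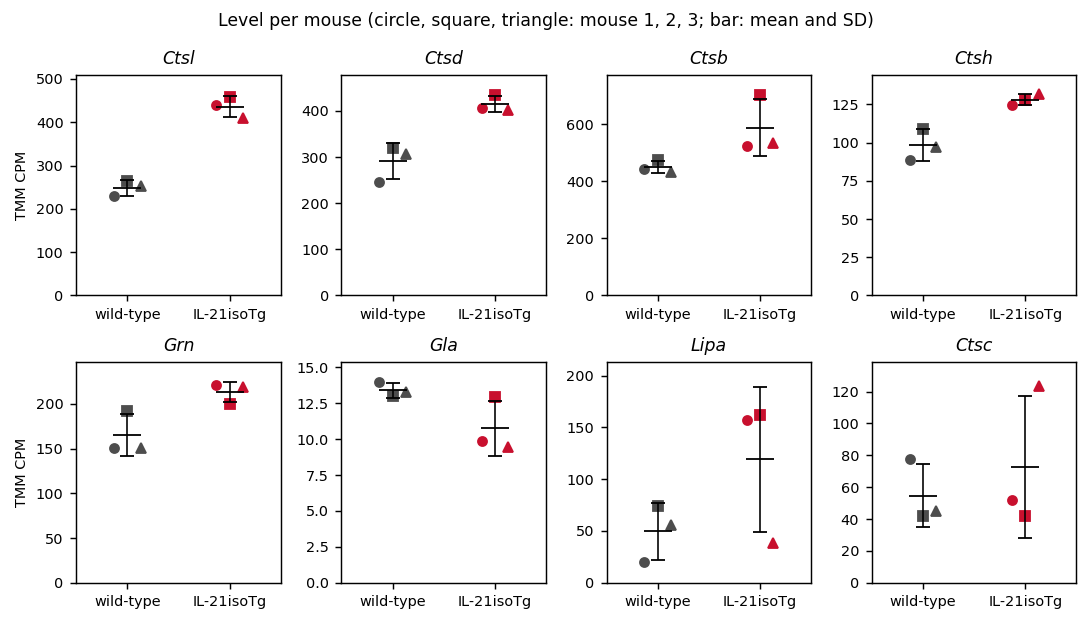
TMM-normalized CPM of 8 of the genes in each mouse, from an axis starting at 0, with the mean and SD of the 3 mice of each genotype. Ctsl, Ctsd, Ctsb, Ctsh and Grn lie higher in every IL-21isoTg mouse and Gla lower, while for Lipa and Ctsc IL-21isoTg mouse 3 stands apart from the other 2 IL-21isoTg mice.

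Among the aspartic and serine proteases, Ctsd encodes cathepsin D, the main aspartic protease of the lysosome. Its level was 246, 320 and 307 CPM in the wild-type mice and 407, 434 and 402 CPM in the IL-21isoTg mice. Every IL-21isoTg mouse lay above every wild-type mouse, by a mean of 1.42-fold. The log2 fold change was 0.51 (SE 0.18, unadjusted p = 0.0197, adjusted p = 0.809 in the quasi-likelihood fit of edgeR). Ctsd also took a larger share of the counts of the 37 genes, 6.72% ± 0.487 (SD, n = 3) in wild-type and 7.89% ± 0.227 (SD, n = 3) in IL-21isoTg mice. The same-strand gene model Gm49369 shares 808 bp with the exons of Ctsd and had 0 counts.

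Ctsa, which encodes the serine carboxypeptidase that also protects β-galactosidase and neuraminidase, had 87.5, 113 and 103 CPM in wild-type and 134, 127 and 111 CPM in IL-21isoTg mice. The groups overlapped by a single pair of mice, and the log2 fold change was 0.30 (SE 0.16). On the opposite strand, Pltp shares 495 bp with the exons of Ctsa and had 32.4% of its counts. Tpp1, the tripeptidyl peptidase gene mutated in a form of neuronal ceroid lipofuscinosis, had a log2 fold change of -0.06 (SE 0.21).

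The glycosidases release sugars from glycogen, glycoproteins and glycolipids. Gaa, the acid α-glucosidase that degrades glycogen and the most abundant glycosidase of the list per length, had 85.6, 84.2 and 80.5 CPM in wild-type and 98.3, 112 and 89.2 CPM in IL-21isoTg mice. Glb1, the acid β-galactosidase, had 30.8, 31.7 and 23.4 CPM in wild-type and 34.5, 34.9 and 33.8 CPM in IL-21isoTg mice. In both genes all IL-21isoTg mice were higher, by log2 fold changes of 0.26 (SE 0.15) and 0.27 (SE 0.17). For Glb1, wild-type mouse 3 lay below the other wild-type mice.

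Gla, the α-galactosidase that cleaves globotriaosylceramide, had the opposite sign. It had 13.98, 12.97 and 13.27 CPM in wild-type and 9.89, 12.95 and 9.42 CPM in IL-21isoTg mice. IL-21isoTg mouse 2 lay only just below the lowest wild-type mouse. The log2 fold change was -0.31 (SE 0.21), with an adjusted p of 0.820 in the quasi-likelihood fit of edgeR.

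Neu1, a sialidase, had 24.8, 36.1 and 36.0 CPM in wild-type and 48.4, 42.7 and 35.8 CPM in IL-21isoTg mice. Its groups overlapped through IL-21isoTg mouse 3, with a log2 fold change of 0.39 (SE 0.20). Hexa, Gusb and Man2b1, the genes of the β-hexosaminidase α subunit, β-glucuronidase and α-mannosidase, had log2 fold changes of 0.42, 0.17 and 0.15 and overlapping groups.

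Of the lipid hydrolases, Lipa had the largest log2 fold change of the 37 genes and a wide spread. Lipa encodes the lysosomal acid lipase, which cleaves cholesteryl esters and triglycerides. It had 19.8, 73.8 and 55.3 CPM in wild-type and 157, 162 and 38.5 CPM in IL-21isoTg mice. IL-21isoTg mice 1 and 2 lay above every wild-type mouse, whereas IL-21isoTg mouse 3 lay below wild-type mice 2 and 3. The log2 fold change was 1.27 (SE 0.60), with an adjusted p of 0.809 in the quasi-likelihood fit of edgeR.

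Ppt1, the palmitoyl-protein thioesterase that is the most abundant of these 4 genes per length, had 56.0, 80.0 and 54.4 CPM in wild-type and 60.7, 66.8 and 63.1 CPM in IL-21isoTg mice. All IL-21isoTg values lay within the wild-type range, the log2 fold change was 0.00071 (SE 0.18), and its 95% interval ran from -0.42 to 0.43. Cap1, on the opposite strand, shares 129 bp with the exons of Ppt1 and had 323% of its counts, which was not separated from Ppt1 here beyond the deposited counting. Asah1 and Smpd1, the genes of acid ceramidase and acid sphingomyelinase, had log2 fold changes of 0.26 and 0.36 with overlapping groups.

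The 2 cofactor precursors differed in their values. Grn encodes progranulin, which is secreted and also cleaved to granulins in the lysosome, and had 151, 192 and 151 CPM in wild-type and 221, 199 and 219 CPM in IL-21isoTg mice. Psap had 768, 1074 and 860 CPM in wild-type and 991, 1063 and 808 CPM in IL-21isoTg mice. The groups lay apart for Grn, with a log2 fold change of 0.37 (SE 0.17), and overlapped for Psap, with 0.08 (SE 0.23). Whether the 2 genes differ from each other in this was not tested.

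In the membrane protein group, the groups of mice lay apart in the higher direction for 3 of 5 genes (60%), against 5.54% of all genes. Lamp1, a heavily glycosylated protein that lines the lysosomal membrane, had 321, 306 and 274 CPM in wild-type and 358, 342 and 363 CPM in IL-21isoTg mice. Cd63, a tetraspanin of late endosomes and exosomes, had 199, 233 and 241 CPM in wild-type and 264, 293 and 254 CPM in IL-21isoTg mice. Mcoln1, the gene of a lysosomal calcium channel, had 27.4, 29.2 and 33.5 CPM in wild-type and 41.7, 33.8 and 36.5 CPM in IL-21isoTg mice. The IL-21isoTg values were all higher in these 3 genes, but the gap was narrow for Mcoln1, where 33.5 and 33.8 CPM met.

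Their log2 fold changes were 0.24 (Lamp1), 0.27 (Cd63) and 0.31 (Mcoln1), each with an SE of 0.16. Lamp2, the partner of Lamp1 that serves chaperone-mediated autophagy, and Scarb2, the receptor that carries β-glucocerebrosidase to the lysosome, had log2 fold changes of 0.06 and 0.04 with overlapping groups. Grtp1 shares 249 bp with the exons of Lamp1 on the opposite strand, and its counts were 17.4% of those of Lamp1.

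The proton pump subunits showed small differences of 1 sign. Atp6v0d1, a subunit of the membrane sector, had 46.2, 55.4 and 48.7 CPM in wild-type and 62.3, 60.8 and 52.9 CPM in IL-21isoTg mice. Atp6ap1, an accessory subunit, had 108, 134 and 116 CPM in wild-type and 128, 154 and 118 CPM in IL-21isoTg mice. In both genes the groups overlapped, and the log2 fold changes of the 4 subunits ran from 0.13 for Atp6v1h to 0.23 for Atp6v0d1.

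The transcription regulators Tfeb and Tfe3 overlapped between the genotypes. Tfeb had 9.38, 19.1 and 15.5 CPM in wild-type and 27.1, 17.2 and 18.7 CPM in IL-21isoTg mice, with a log2 fold change of 0.52 (SE 0.30). Tfe3 had 55.7, 39.0 and 38.6 CPM in wild-type and 40.5, 49.3 and 47.2 CPM in IL-21isoTg mice, with a log2 fold change of 0.04 (SE 0.19). Both factors act largely through their entry into the nucleus, which transcript counts do not measure.

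Summed over the 37 genes, the level was 3923, 4809 and 4237 CPM in the wild-type mice and 5219, 5631 and 4936 CPM in the IL-21isoTg mice. The sums did not overlap. Within the sum, the shares of 2 genes lay apart in the higher direction, Ctsl and Ctsd, and the shares of 6 lay apart in the lower direction, namely Tpp1, Gla, Ppt1, Psap, Lamp2 and Atp6ap1. Shares of 1 sum are tied to each other, so a larger share of one gene lowers those of the others. They exist only for the members, so the counts of 2 and 6 have no background over all genes and were not tested. Psap, the largest item, took 20.7% ± 1.43 (SD, n = 3) of these counts in wild-type and 18.1% ± 1.49 (SD, n = 3) in IL-21isoTg mice.

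For comparison, 80 other genes of the lysosome and of its inhibitors were read from the same fit, of which 78 passed the filter (Tfec and Cst7 did not). None was called in the quasi-likelihood fit of edgeR, 60 of the 78 had a positive log2 fold change (76.9%, against 47.9% of all genes), and the median was 0.13. The groups lay apart in the higher direction for 9 of them (11.5%, against 5.54% of all genes) and in the lower direction for 0 (against 6.54%). An unadjusted p under 0.05 was reached in the higher direction by 4, namely Gm2a, Acp5, Mitf and Cst6, and in the lower direction by 0.

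Of 25 other lysosomal enzymes, 16 had a positive log2 fold change. Gm2a, the activator protein for ganglioside GM2, had 37.8, 72.5 and 53.5 CPM in wild-type and 129, 131 and 64.8 CPM in IL-21isoTg mice. Like Lipa, it was high in IL-21isoTg mice 1 and 2 and within the wild-type range in mouse 3. Acp5, the tartrate-resistant acid phosphatase, had a log2 fold change of 0.51 (SE 0.22). Ggh, the γ-glutamyl hydrolase, was singled out after its values were seen, because it had 951, 161 and 536 CPM in wild-type and 987, 144 and 2571 CPM in IL-21isoTg mice, which is the order of the summed salivary gland markers over the 6 mice.

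Of 19 other membrane and sorting genes, 14 were positive, with log2 fold changes of 0.03 for Laptm4a and -0.20 for M6pr, the most abundant of them per length. Of 17 other pump subunits, 14 were positive (82.4%, against 47.9% of all genes) and the groups lay apart in the higher direction for 4 (23.5%, against 5.54%), with a median of 0.21. The most abundant per length were Atp6v1g1 and Atp6v1f, with log2 fold changes of 0.34 (SE 0.17) and 0.26 (SE 0.13). All 13 other regulators that were tested were positive, among them Lamtor2 and Lamtor5, which anchor mTORC1 signaling at the lysosome, with 0.44 (SE 0.19) and 0.16 (SE 0.20). Mitf, a relative of Tfeb that was named after its values were seen, had 3.29, 5.53 and 6.30 CPM in wild-type and 9.02, 5.70 and 13.9 CPM in IL-21isoTg mice, with a log2 fold change of 0.91 (SE 0.39) and overlapping groups.

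The cystatins inhibit cysteine cathepsins, and 3 of the 4 that were tested had a positive log2 fold change. Cst3, the widely expressed cystatin C, had 189, 303 and 215 CPM in wild-type and 291, 240 and 365 CPM in IL-21isoTg mice, so the groups overlapped. Cst10, which is also among the salivary gland genes, ran from 468 to 8875 CPM in IL-21isoTg mice alone.

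**Figure D4:**
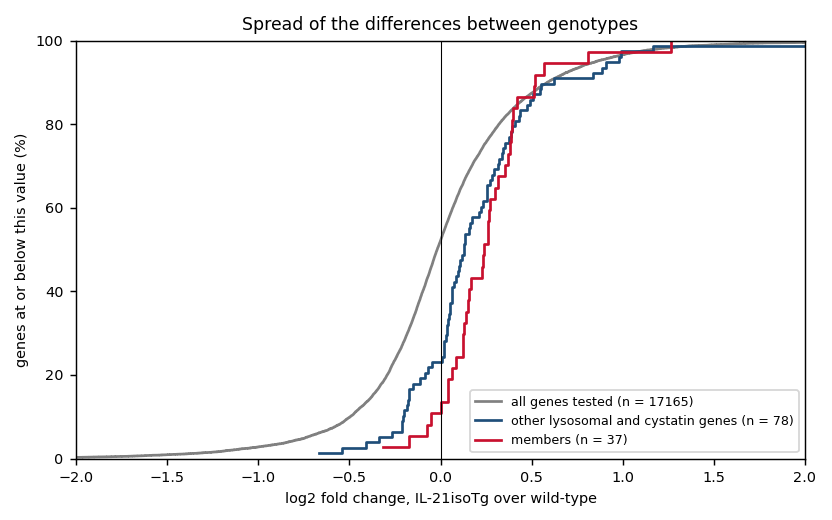
Cumulative share of genes (vertical axis, percent) at or below a given log2 fold change (horizontal axis, shown from -2 to 2) for all 17165 genes tested, the 78 other lysosomal and cystatin genes and the 37 members. The curve of the members lies to the right of that of all genes up to a log2 fold change near 0.4, with medians of 0.24 and -0.02, and the curve of the other lysosomal genes lies between them over most of that range, with a median of 0.13.

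Genes of other cell types were read beside these results, because several members are also expressed in macrophages, fibroblasts or endothelium, and in bulk samples more cells of a type and more RNA per cell cannot be told apart. The 9 fibroblast markers summed to between 1992 and 3548 CPM in wild-type and between 4424 and 5106 CPM in IL-21isoTg mice, without overlap. Of these markers 8 of 9 had a positive log2 fold change. Dcn had -0.27 (SE 0.28) with overlapping groups, at a mean of 738 CPM in wild-type and 612 CPM in IL-21isoTg mice. The groups lay apart in the higher direction for Col1a1, Col1a2, Col3a1 and Lum (44.4%, against 5.54% of all genes). In the lower direction it was 0 (against 6.54%). Col1a1 had a log2 fold change of 1.02 (SE 0.27, unadjusted p = 0.00579), and Pdgfra, the gene of CD140a, had 0.57 with overlapping groups. The 6 endothelial markers summed to between 88.4 and 222 CPM in wild-type and between 136 and 306 CPM in IL-21isoTg mice, all 6 with a positive log2 fold change. The groups lay apart in the higher direction for Cdh5 only (16.7%, against 5.54% of all genes), with a log2 fold change of 1.22 (SE 0.33). Pecam1, the gene of CD31, had 1.11 (SE 0.40) with overlapping groups.

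The 12 macrophage markers summed to between 170 and 233 CPM in wild-type and between 150 and 372 CPM in IL-21isoTg mice, and most of the sum was Cd14. Of the 10 macrophage markers that were tested, 5 were positive and 5 negative, and Adgre1 and Fcgr1 had too few counts to be tested. The groups lay apart in the higher direction for C1qa and C1qc (20%, against 5.54% of all genes). In the lower direction it was 0 (against 6.54%). C1qa and C1qc had log2 fold changes of 0.94 (SE 0.56) and 1.69 (SE 0.68), at 3 to 37 counts per library, and Csf1r had -0.11. The sums of the T cell markers (7.74 to 10.9 and 8.30 to 10.5 CPM) and of the B cell markers (1.83 to 6.81 and 4.28 to 4.91 CPM) overlapped between the genotypes. Of the 5 adipocyte markers 3 were tested, all with a positive log2 fold change, and their sum was between 25.4 and 67.8 CPM in wild-type and between 30.1 and 192 CPM in IL-21isoTg mice. The sum of the mammary epithelium markers overlapped as well, at 6169 to 7881 CPM in wild-type and 5807 to 8941 CPM in IL-21isoTg mice. Of these 10 markers 6 were positive and 4 negative. The groups lay apart only for Elf5 (10%, against 5.54% of all genes), which was higher, with a log2 fold change of 0.70 (SE 0.22). The part of macrophage, fibroblast, endothelial and adipocyte RNA in the higher levels of the lysosomal genes was not tested.

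**Figure D5:**
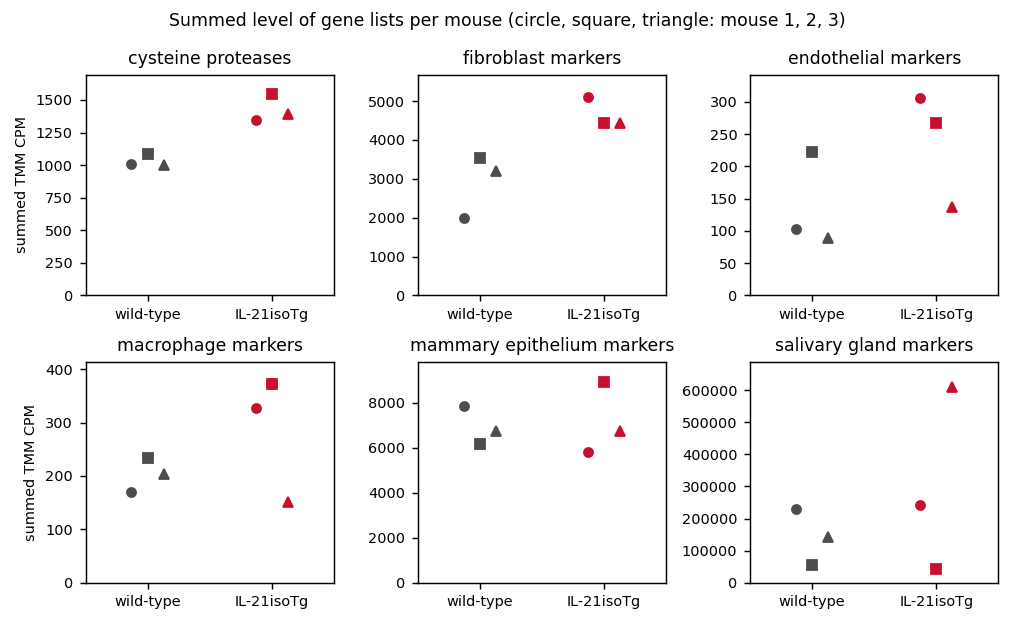
Summed TMM-normalized CPM per mouse for the 10 cysteine proteases and for marker lists of 5 tissues, each on its own axis starting at 0. The sums of the cysteine proteases (1005 to 1085 and 1348 to 1543 CPM) and of the fibroblast markers (1992 to 3548 and 4424 to 5106 CPM) did not overlap between the genotypes. Those of the endothelial, macrophage, mammary epithelium and salivary gland markers overlapped.

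The counts of members whose groups lay apart depended on single libraries. Without wild-type mouse 2 or without IL-21isoTg mouse 3, 18 members lay apart in the higher direction, beside 10.7% and 11.6% of all genes, where groups with fewer mice are compared. With any of the other 4 libraries left out, it was between 10 and 14 members, beside 8.28% to 12.5% of all genes. Without wild-type mouse 3 or without IL-21isoTg mouse 1, no member lay apart in the lower direction, so that Gla was lost, beside 9.58% and 9.49% of all genes. With any of the other 4 libraries left out it was 1 member, beside 10.5% to 15% of all genes. The median log2 fold change of the 37 genes stayed between 0.20 and 0.30 with any 1 library left out.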

How the data were processed

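The authors deposited raw counts of reads per gene, without normalization, and a signal table in which these counts are scaled by the size factors of the libraries. A further table of the authors' own comparison (log2 fold changes, standard errors, test statistics and p-values) was not used. The submitters' processing notes name FastQC 0.11.7, Trimmomatic 0.38, HISAT2 2.1.0, SAMtools 1.9, featureCounts 1.6.3, DESeq2 1.24.0 and mm10, and libraries were poly(A)-selected and directional. The annotation and the strand setting are not given in the sources used here.

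Low counts were removed with filterByExpr (minimum count 10, minimum total count 15), and library sizes were normalized with TMM. Genotypes were compared with edgeR 4.0.16 (quasi-likelihood test, robust, genotype as the only term) over all 6 libraries, with Benjamini-Hochberg adjustment of p over 17165 genes and a threshold of 0.05. DESeq2 1.42.0, limma 3.58.1, R 4.3.3, Python 3.11.15, pandas 2.3.3 and matplotlib 3.10.9 were used, and the fit was tested on simulated data. Exon lengths and positions came from GENCODE M21 (GRCm38), in which 55227 of the 55487 genes and all 37 members were matched. The signal table served only to repeat the order of levels.

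Values in every mouse were given for the most abundant member and the member with the smallest p of each role, for members with an unadjusted p under 0.05, for members whose groups did not overlap, and for both regulators. Ctsa and Ctsc were added after their values were seen. From each pathway list, genes with an unadjusted p under 0.05 or the 2 most abundant were named. The members and lists were chosen with earlier results of these data known. Alternatives covered normalization, filters, the test, the threshold, a salivary gland covariate, a replicate block and leaving out each library. Counts with each library left out for groups that do not overlap were added after seeing the data. Totals were 15902886 to 25719244 counts per library, and Wilson intervals and floors (3 counts) cover counting error only, whereas the intervals of fold changes come from the fit and include the spread between mice.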

Additional observations from a re-analysis of the deposited data

How the results depend on the processing

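With 3 mice per genotype and 0 genes called, no member could be singled out by the adjusted test, and small differences of the 37 genes were described rather than tested. The number of genes called higher over the whole table was 0 with edgeR's quasi-likelihood test, 14 without a filter on low counts, 52 with edgeR's likelihood ratio test and 72 with DESeq2, and 0 to 6 with 1 library left out. The 6 calls came without wild-type mouse 3. The number called lower was 0, with 13 under the likelihood ratio test, 8 under DESeq2 and 1 with the salivary gland level as a covariate. Of the members, 1 was called higher by DESeq2 and 0 by every other alternative, and 0 were called lower by any. The number of members whose groups did not overlap was 10 to 18 in the higher and 0 to 1 in the lower direction with 1 library left out. Beside these stood 8.28% to 12.5% and 9.49% to 15% of all genes. With other normalizations or without the salivary gland markers it was 9 to 12 members higher and 1 lower, for which no share over all genes is given. The causes were not tested.

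Of the members, 12 changed sign under some alternatives, most of them with a log2 fold change near 0, but also Ctsc with 0.40. Ppt1 was -0.0099 with upper quartile normalization, -0.0083 without a filter and -0.0012 with at least 10 counts in every library. Ctso was 0.017 with limma-voom and 0.065 with the salivary gland covariate, and Tpp1 was 0.049 with that covariate. With 1 library left out, the log2 fold change ranged from -0.11 to 0.37 for Ctsf, -0.38 to 0.35 for Ctss, -0.48 to 0.35 for Ctso, -0.20 to 0.12 for Tpp1, -0.099 to 0.20 for Ppt1, -0.0080 to 0.23 for Psap, -0.031 to 0.14 for Lamp2, -0.20 to 0.33 for Scarb2, -0.052 to 0.25 for Tfe3, -0.075 to 0.33 for Gusb, -0.21 to 0.76 for Ctsc and -0.026 to 0.22 for Atp6v1h. The other 25 members kept their sign under all alternatives run. The number of members with an unadjusted p under 0.05 in the higher direction lay between 2 and 8 over the alternatives, and it was 0 in the lower direction in all of them. Over all genes tested, in either direction, that number lay between 537 and 1566. The replicate block gave 0 called members and a median log2 fold change of 0.24 for the 37 genes. It left 2 members with an unadjusted p under 0.05, both higher, beside 657 of 17165 genes in either direction. The labels give no pairing beyond the number of the mouse. Correlations of same-numbered mice, taken on deviations from the group means, were -0.22, 0.068 and -0.062. Those of differently numbered mice ran from -0.23 to 0.23. Deviations of 3 mice from their mean are tied to each other, so this check cannot decide whether the mice were paired.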
